A study of Homo sapiens with 24 samples.

Results

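The genes described here are 9 of the 26475 in the files. They are 8 metallothionein genes of the cluster at 16q13 (MT1A, MT1E, MT1F, MT1G, MT1H, MT1M, MT1X and MT2A) and MTF1, the gene of the metal sensor that acts on them, chosen by gene symbol. They were measured by poly(A) RNA sequencing in 24 libraries of cultured 786-M1A and OS-LM1 cells, which are metastatic derivatives of the human clear cell renal carcinoma lines 786-O and OS-RC2 and carry VHL mutations. In each line, 4 libraries were made with each of 3 constructs, which gives 6 groups: shPAX8-1 and shPAX8-2, which are different RNA interference hairpins against PAX8, the transcription factor of the renal lineage, and sgNTC18. All the cells were grown in RPMI with 10% FBS and taken before full confluence, and no group received a metal according to the labels. The hairpin plasmids of the study are inducible with doxycycline. The name sgNTC18 is not spelled out in the sources used here, and its prefix differs from that of the hairpins, so in every comparison with sgNTC18 the knockdown of PAX8 and any other difference between the constructs cannot be told apart. The comparison of shPAX8-1 with shPAX8-2 involves no sgNTC18 library. There too, the depth of the PAX8 knockdown and any other difference between the hairpins cannot be told apart. Nothing in the labels says that replicates are separate cultures, so p-values measure the spread between these libraries, which may be technical.

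Metallothioneins are very small, cysteine-rich proteins that hold zinc, copper and cadmium ions in the cell, and the kidney tubule, where cadmium gathers, is a classic site of their expression. MTF1 is a zinc-finger protein that senses free zinc, enters the nucleus and binds short metal response elements in the promoters of the metallothionein genes and of SLC30A1, which encodes the zinc exporter of the plasma membrane. Glucocorticoids, oxidants and heat are further known inducers of the family. The 8 metallothionein genes lie within 75.6 kb of chromosome 16 on GRCh38, from MT2A (56608584 to 56609497) through MT1E, MT1M, MT1A, MT1F, MT1G and MT1H to MT1X (56682470 to 56684196). MT1G is the member on the minus strand. MTF1 is on the minus strand of chromosome 1 (37809574 to 37859592).

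The promoters of the family carry the elements that MTF1 reads, and 3 are printed here because they belong to the most abundant member (MT2A), to a member that moved differently in the lines (MT1X) and to a nearly silent one (MT1H). Each run is the 250 bases before the gene start, 5′ to 3′ on the plus strand, from RefSeq on GRCh38.p14. Capitals mark the metal response element core, searched as TGCACNC or TGCGCNC on both strands.
MT2A, chr16:56608334-56608583: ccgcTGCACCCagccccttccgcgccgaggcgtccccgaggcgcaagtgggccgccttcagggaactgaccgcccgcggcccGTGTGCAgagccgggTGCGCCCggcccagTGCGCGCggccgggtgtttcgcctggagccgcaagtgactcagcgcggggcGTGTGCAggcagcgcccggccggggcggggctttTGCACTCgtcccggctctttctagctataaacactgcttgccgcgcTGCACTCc
MT1X, chr16:56682220-56682469: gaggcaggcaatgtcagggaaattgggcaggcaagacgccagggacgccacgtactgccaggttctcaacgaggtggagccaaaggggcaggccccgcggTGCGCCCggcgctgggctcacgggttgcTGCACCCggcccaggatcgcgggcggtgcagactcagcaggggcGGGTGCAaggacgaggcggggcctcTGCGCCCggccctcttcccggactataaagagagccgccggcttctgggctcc
MT1H, chr16:56669564-56669813: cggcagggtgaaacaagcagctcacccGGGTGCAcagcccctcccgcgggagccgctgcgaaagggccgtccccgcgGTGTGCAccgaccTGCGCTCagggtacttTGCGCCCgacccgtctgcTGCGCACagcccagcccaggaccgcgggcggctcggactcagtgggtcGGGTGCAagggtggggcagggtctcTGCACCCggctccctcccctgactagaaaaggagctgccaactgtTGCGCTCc

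The core occurred 7 times before MT2A, 4 times before MT1X and 8 times before MT1H. Among the 35116 promoters of the same table and length, 24.8% held at least 1 core, 0.37% held at least 4, 0.0313% at least 7 and 0.0171% at least 8. MT1H, with the most cores, was among the least expressed members, so in these 3 genes the number of cores did not follow the level. The MT2A and MT1X runs hold the TATA sequence TATAAA, as 6.8% of all promoters in the table do, and the MT1H run does not hold these letters. MTF1's own promoter had no core in the same window, and that of SLC30A1 had 1. The table had an entry for 4 of the 9 members, so the promoters of MT1A, MT1E, MT1F, MT1G and MT1M are named only.

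The hairpins that made the knockdown groups are given by the study as 22-base guides, printed 5′ to 3′ with the seed (bases 2 to 8) in capitals.
shPAX8-1: tGTGAGTCaatgcttagtcggc
shPAX8-2: tAGAGTTGtgttaataatggag

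The full complement of shPAX8-1 was found in 10 of the 14 PAX8 transcripts of GENCODE v44 and that of shPAX8-2 in 7 of 14. The complement of the shPAX8-1 seed also occurs in the longest transcripts of MT1H and MTF1, and that of the shPAX8-2 seed in MTF1, where 8.8% and 11.6% of all genes hold such a match. Neither seed has its complement in MT2A, MT1X, MT1E, MT1F or MT1G.

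The libraries held 11634419 to 52059375 expected counts each. Read counts were divided by TMM-normalized library size over all 24 libraries to give CPM, a level on a common library size. TPM, which also divides by transcript length, is used wherever genes are compared with each other. PAX8 was 341 ± 44.7 CPM (SD, n = 4) in 786-M1A sgNTC18 libraries, 18.7 ± 4.31 with shPAX8-1 and 42.4 ± 2.36 with shPAX8-2. In OS-LM1 it was 259.9 ± 14.5, 78.2 ± 13.1 and 79.2 ± 13.7 CPM, so the target was lower in every hairpin library than in any sgNTC18 library of its line, and less deeply so in OS-LM1. Of the renal carcinoma line markers, PAX8, VIM, KRT8 and KRT18 were present in all 24 libraries. CA9 had 0 to 3 counts in 786-M1A libraries and 197 to 1713 in OS-LM1 libraries. The white blood cell, endothelial and liver markers PTPRC, PECAM1 and ALB had at most 24 counts in any library.

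MT2A, the most widely expressed human metallothionein, supplied most of the RNA of the 8 metallothionein members in both lines. MT1X and MT1F were present in both lines too, while MT1E was near 0 in OS-LM1 and MT1G in 786-M1A. MT1L, a cluster pseudogene outside the 9, had 43.6 TPM in 786-M1A and 108.3 in OS-LM1 sgNTC18 libraries. It is left out of the orders that follow. In sgNTC18 libraries of 786-M1A the TPM order was MT2A (2714 ± 223; SD, n = 4), MT1E (747 ± 28.4), MT1X (332 ± 50.6) and MT1F (38.3 ± 3.95), with no overlap between neighbours. In the OS-LM1 sgNTC18 libraries it was MT2A (2609 ± 232), MT1X (154 ± 8.48), MT1F (63.3 ± 6.97) and MT1G (41.0 ± 2.72), again without overlap. MTF1, a transcription factor gene, was far below them at 5.52 ± 0.221 TPM in 786-M1A and 4.86 ± 0.283 in OS-LM1. By TPM, MT2A ranked between 36 and 51 among all genes in the 786-M1A sgNTC18 libraries and between 44 and 53 in those of OS-LM1. Reads of these genes are hard to assign, since 18.1% (MT1F) to 54.2% (MT1M) of the 50-base windows of each metallothionein transcript match another metallothionein with at most 2 mismatches. MTF1 has no such window, so its counts are free of this uncertainty.

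**Figure D1:**
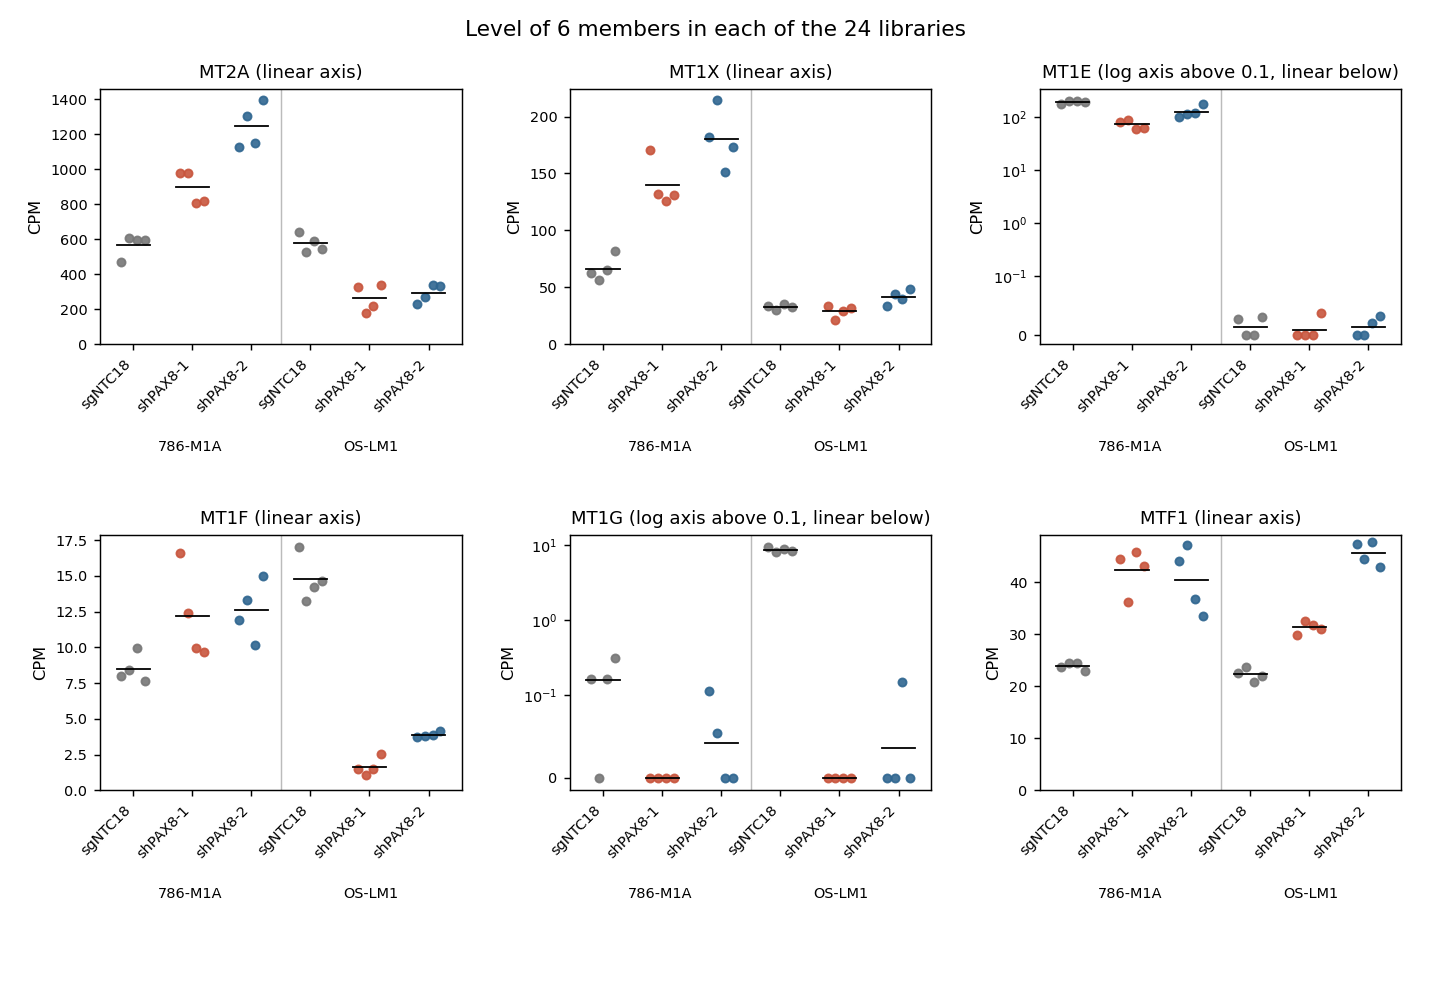
CPM of the 6 members that passed the count filter in any fit, 1 point per library (n = 4 per group) with a line at the group mean; MT1E and MT1G have an axis that is logarithmic above 0.1 CPM and linear below. MT2A moved up in 786-M1A and down in OS-LM1 with either hairpin, MT1E was near 0 in all OS-LM1 libraries, and MT1G was above 1 CPM only in OS-LM1 sgNTC18 libraries.

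The 3 lowest members carried little RNA anywhere. MT1M had 0 to 2 counts per library. MT1A had 0 to 7 counts and MT1H 0 to 14 counts. These 3 genes failed the count filter in every fit, so they have values and no test. MT1E, MT1F, MT1X, MT2A and MTF1 were tested in 786-M1A, and MT1F, MT1G, MT1X, MT2A and MTF1 in OS-LM1. In the fit of all 24 libraries 6 of the 9 members were tested. MT1G passed the filter, in OS-LM1 and in the 24-library fit, through its OS-LM1 sgNTC18 libraries alone, and MT1E passed that of the 24-library fit through 786-M1A alone. These genes had to differ there, so in those fits MT1E and MT1G are described by their counts and left out of the numbers of members called.

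MT1E and MT1G set the 2 lines apart. MT1E had 4268, 3648, 6207 and 4298 counts in the 786-M1A sgNTC18 libraries and 1, 0, 0 and 1 in those of OS-LM1. Over the 4 libraries of each group this is 18421 counts against 2, a ratio of 13298 per unit of depth (95% exact interval of the counts 3681 to 109820). Every OS-LM1 library, with or without a hairpin, had 0 or 1 count of MT1E. MT1G had the opposite pattern. It had 336, 278, 316 and 274 counts in the OS-LM1 sgNTC18 libraries and 4, 0, 5 and 7 in those of 786-M1A.

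Between the lines in sgNTC18 libraries, 1 of the 4 other tested members was higher in OS-LM1 (MT1F) and 1 was lower (MT1X), where 32.0% of all tested genes were higher and 31.0% lower. MT1F was 1.74-fold higher (log2 0.80 ± 0.17, SE, adjusted p = 0.00025 by edgeR's quasi-likelihood test, as for all adjusted p-values here) and MT1X 2.03-fold lower (log2 -1.02 ± 0.14, adjusted p = 5.6e-07). MT2A, the most abundant, had a log2 difference of 0.02 ± 0.16 (adjusted p = 0.91) and MTF1 one of -0.10 ± 0.10 (adjusted p = 0.40). The 95% interval of the MT2A difference ran from -0.28 to 0.33 on the log2 scale. Over both hairpins, 3 of these 4 members were lower in OS-LM1 (MT1F, MT1X and MT2A) and none was higher, where 41.5% of all genes were lower and 41.7% higher. MT2A was then 3.80-fold lower in OS-LM1 (log2 -1.93 ± 0.11, adjusted p = 1.2e-14), MT1X 4.61-fold lower and MT1F 4.82-fold lower.

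**Figure D2:**
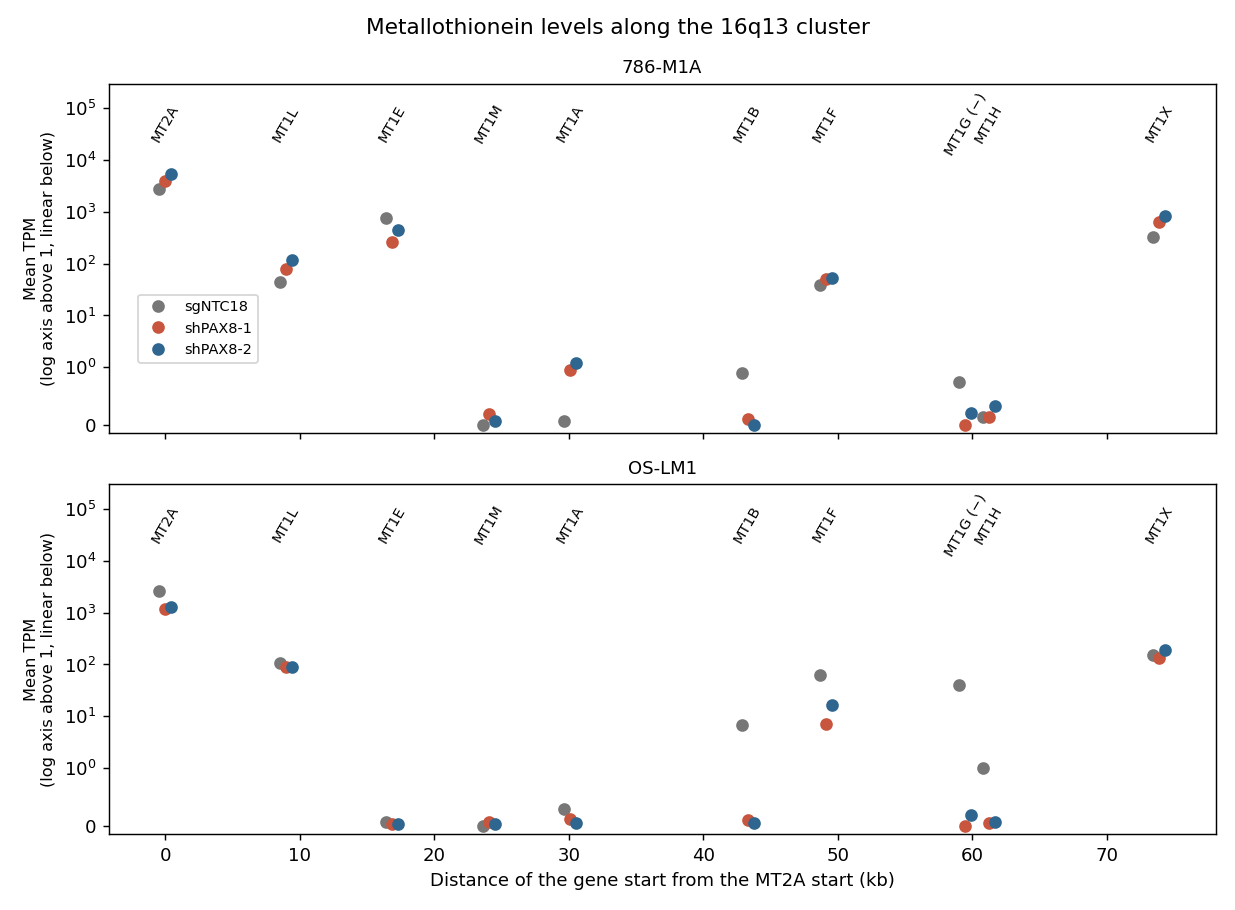
Mean TPM of each metallothionein gene (n = 4 libraries per point) against the distance of its start from that of MT2A in kb, for 786-M1A above and OS-LM1 below, with a vertical axis that is logarithmic above 1 TPM and linear below. The minus sign marks MT1G, which lies on the other strand; MT1L and MT1B are cluster genes outside the 9. From MT1B to MT1H, every gene was lower with the hairpins in OS-LM1, as was MT2A at one end (log2 -1.14 and -0.98), whereas MT1L and MT1X had log2 changes between -0.28 and 0.35. MT1B and MT1G passed the OS-LM1 count filter through sgNTC18 libraries alone, and MT1H failed it.

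In 786-M1A, the group means of MT2A, MT1X and MT1F were higher with each hairpin than in sgNTC18 libraries. That of MT1E, next after MT2A by TPM in the sgNTC18 libraries, was lower. With shPAX8-1, 4 of the 5 tested members rose (MT2A, MT1X, MT1F and MTF1) and 1 fell (MT1E), where 36.1% of all tested genes rose and 34.5% fell. With shPAX8-2, the counts were again 4 and 1, where 31.5% rose and 30.9% fell. Both comparisons use the same 4 sgNTC18 libraries, and in bulk RNA a lower level per cell and fewer expressing cells cannot be told apart.

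MT2A in 786-M1A was 471, 605, 596 and 594 CPM in sgNTC18 libraries, 978, 978, 809 and 819 with shPAX8-1, and 1128, 1306, 1149 and 1399 with shPAX8-2. The 3 groups did not overlap, and shPAX8-2 was the highest. MT2A rose 1.60-fold with shPAX8-1 (log2 0.68 ± 0.11, adjusted p = 5.2e-05) and 2.23-fold with shPAX8-2 (log2 1.16 ± 0.11, adjusted p = 4.6e-07). With the GC trend removed the first of these was log2 1.09. It then ranked 14 to 16 among all genes by TPM in the shPAX8-2 libraries. MT2A is the member also known as a glucocorticoid-responsive gene.

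MT1X, at the far end of the cluster, was 62.2, 56.6, 65.4 and 81.4 CPM in the 786-M1A sgNTC18 libraries, 171, 132, 126 and 131 with shPAX8-1, and 182, 215, 152 and 173 with shPAX8-2. Every hairpin library was above every sgNTC18 library, while the hairpin groups overlapped. The rise was 2.13-fold with shPAX8-1 (log2 1.09 ± 0.14, adjusted p = 5.6e-06) and 2.75-fold with shPAX8-2 (log2 1.46 ± 0.14, adjusted p = 5.1e-07), more than for any other tested member in this line. MT1F, a lower member in the middle of the cluster, rose 1.45-fold (log2 0.54 ± 0.18, adjusted p = 0.014) and 1.50-fold (log2 0.59 ± 0.18, adjusted p = 0.010). The MT1F levels of sgNTC18 and shPAX8-1 libraries overlapped, and without shPAX8-1 replicate 1 its rise was log2 0.35 with an adjusted p of 0.063. With the GC trend removed the rise was log2 1.13.

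MT1E went the other way in the same libraries. Its CPM was 175, 202, 201 and 189 in 786-M1A sgNTC18 libraries, 80.2, 87.2, 58.2 and 62.8 with shPAX8-1, and 97.6, 111, 120.3 and 174 with shPAX8-2. All 3 groups were apart, though shPAX8-2 replicate 4 was just under the lowest sgNTC18 library. MT1E fell 2.62-fold with shPAX8-1 (log2 -1.39 ± 0.17, adjusted p = 2.9e-06) and 1.50-fold with shPAX8-2 (log2 -0.59 ± 0.17, adjusted p = 0.0061). Its share of the summed metallothionein TPM was 19.5% ± 1.02 in sgNTC18 libraries, 5.24% ± 0.495 with shPAX8-1 and 6.56% ± 1.23 with shPAX8-2. MT1E lies between MT2A and MT1X, which both rose.

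MT1A was listed at 15 counts over the 786-M1A shPAX8-1 libraries and 16 over the shPAX8-2 libraries, against 1 over the sgNTC18 libraries. The ratios per unit of depth were 19.2 (95% exact interval 2.95 to 808) and 24.3 (3.78 to 1021), which cover counting error only. MT1A shares 35.2% of its windows with another family member, most often the pseudogene MT1L. The mean level of MT1L was 9.25 CPM in the 786-M1A sgNTC18 libraries, 18.4 with shPAX8-1 and 27.4 with shPAX8-2. In OS-LM1 it was 24.3, 20.4 and 20.6 CPM in the same order, beside 9, 2 and 1 counts of MT1A. Whether MT1L reads entered the MT1A counts was not tested. MT1G went from 16 counts over the 786-M1A sgNTC18 libraries to 0 over the shPAX8-1 libraries and 3 over the shPAX8-2 libraries, a fall of at least 4.17-fold against a floor of 3 counts per group and a ratio of 3.51 (1.00 to 18.8).

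In OS-LM1, MT1F and MT2A fell with each hairpin and the counts of MT1G went to 0 or near it. With shPAX8-1, 2 of the 4 tested members other than MT1G fell (MT1F and MT2A) and 1 rose (MTF1), where 35.8% of all tested genes fell and 35.6% rose. With shPAX8-2, the same 2 fell and 2 rose (MT1X and MTF1), where 34.1% fell and 34.3% rose. Again the sgNTC18 libraries are shared by both comparisons.

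MT1G lies between MT1F and MT1H. Its 274 to 336 counts per sgNTC18 library stood against 0 in all 4 shPAX8-1 libraries and 0, 0, 7 and 0 in the shPAX8-2 libraries. This is at least 262-fold lower with shPAX8-1, against a floor of 3 counts over the group, and 137-fold lower with shPAX8-2 (95% exact interval 66.1 to 340.5). The 7 counts came from shPAX8-2 replicate 3, which had the most reads of all libraries. A share of 39.5% of MT1G windows is near another member's sequence, most often MT1X. How far shared reads entered the MT1G counts was not tested.

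MT1F was 17.0, 13.3, 14.2 and 14.7 CPM in the OS-LM1 sgNTC18 libraries, 1.51, 1.11, 1.49 and 2.54 with shPAX8-1, and 3.71, 3.82, 3.88 and 4.16 with shPAX8-2. The 3 groups were far apart. MT1F fell 8.89-fold with shPAX8-1 (log2 -3.15 ± 0.18, adjusted p = 1.3e-11) and 3.78-fold with shPAX8-2 (log2 -1.92 ± 0.17, adjusted p = 5.4e-09). MT1H, beside MT1G, had 29 counts over the sgNTC18 libraries against 1 with shPAX8-1 and 2 with shPAX8-2, ratios of 19.0 (95% exact interval 3.14 to 775) and 11.5 (2.91 to 99.6). MT1B, the cluster gene just before MT1F and not one of the 9, had 33, 45, 69 and 43 counts in the sgNTC18 libraries, 0, 0, 2 and 0 with shPAX8-1, and 0, 0, 0 and 1 with shPAX8-2. The genes MT1B, MT1F, MT1G and MT1H are neighbours between 56651886 and 56671129 on chromosome 16. All 4 had lower mean levels with either hairpin in OS-LM1. Of all tested genes, 35.8% were called lower with shPAX8-1 and 34.1% with shPAX8-2, a stricter measure than a lower mean. The share of all genes with a lower mean was not counted, and their median log2 change was -0.013 and -0.014. That grouping by position was noticed after the values were seen, and MT2A at one end of the cluster fell too. MT1B and MT1G passed the OS-LM1 filter through the sgNTC18 libraries alone, so they had to differ, and MT1H was not tested. In 786-M1A, MT1B had 17 counts over the sgNTC18 libraries against 1 with shPAX8-1 and 0 with shPAX8-2.

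MT2A in OS-LM1 was 642, 524, 591 and 544 CPM in sgNTC18 libraries, 325, 177, 219.6 and 339 with shPAX8-1, and 227, 267, 339 and 331 with shPAX8-2. Every hairpin library was below every sgNTC18 library, and the hairpins overlapped. The fall was 2.21-fold with shPAX8-1 (log2 -1.14 ± 0.18, adjusted p = 3.5e-05) and 1.97-fold with shPAX8-2 (log2 -0.98 ± 0.18, adjusted p = 0.00016). MT1X stayed nearer its sgNTC18 level in this line, at 33.1, 30.1, 34.8 and 32.6 CPM in sgNTC18 libraries, 33.4, 20.7, 29.0 and 31.5 with shPAX8-1, and 33.9, 43.9, 39.6 and 48.1 with shPAX8-2. Its log2 differences from sgNTC18 were -0.21 ± 0.13 (adjusted p = 0.14) and 0.35 ± 0.13 (adjusted p = 0.020), and the second lost its call without sgNTC18 replicate 2 (log2 0.31, adjusted p = 0.063), without shPAX8-2 replicate 4 (log2 0.27, adjusted p = 0.084) or with GC and length trends removed (log2 0.21, adjusted p = 0.11). With the GC trend alone removed it was log2 0.62.

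**Figure D3:**
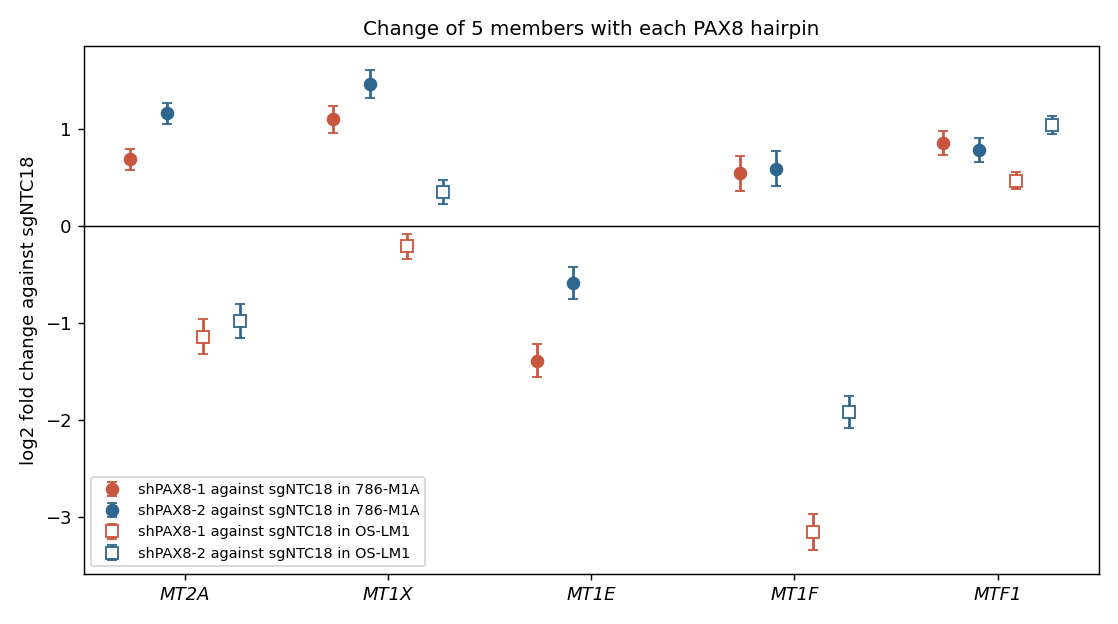
Fitted log2 fold change against sgNTC18 (point) with its standard error (bar) for 5 members, by hairpin (colour) and line (filled circles 786-M1A, open squares OS-LM1); n = 4 libraries per group. MT1E was not tested in OS-LM1, and MT1G is left out because all its shPAX8-1 libraries were at 0. MT2A and MT1F lie above 0 in 786-M1A and below 0 in OS-LM1, and MTF1 lies above 0 in both.

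The response to the hairpins differed between the lines when the difference itself was tested, in the 24-library fit with both hairpins averaged. For 3 of the 4 members other than MT1E and MT1G the change was lower in OS-LM1 than in 786-M1A, and for none was it higher, where 28.8% of all genes were lower and 29.9% higher. The difference of the log2 changes was -3.07 ± 0.22 for MT1F (adjusted p = 9.3e-12), -1.95 ± 0.19 for MT2A (adjusted p = 3.1e-09) and -1.18 ± 0.17 for MT1X (adjusted p = 2.0e-06). For MTF1 it was -0.03 ± 0.12 (adjusted p = 0.85). MT1E and MT1G had groups at or near 0.

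**Figure D4:**
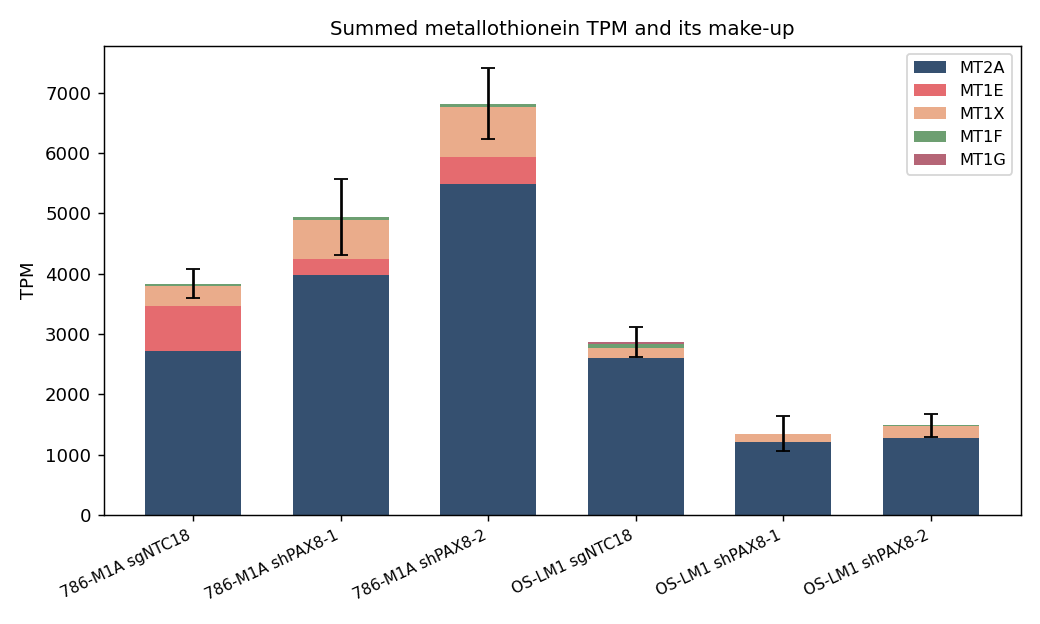
Summed TPM of the metallothionein members by group (bar height; mean of 4 libraries, error bar 1 SD of the sum), divided by member; MT1A, MT1H and MT1M are too low to draw. The sum was highest with shPAX8-2 in 786-M1A and lowest with shPAX8-1 in OS-LM1, and MT2A was the largest part in every group.

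Summed over the 8 metallothionein genes, the level in 786-M1A was 3833 ± 243 TPM in sgNTC18 libraries (SD, n = 4), 4941 ± 629 with shPAX8-1 and 6814 ± 589 with shPAX8-2. In OS-LM1 it was 2869 ± 246, 1344 ± 290.1 and 1488 ± 191 TPM. The lowest hairpin library of 786-M1A (4315 TPM) was above its highest sgNTC18 library (3973), and the highest hairpin library of OS-LM1 (1683) was below the lowest sgNTC18 library (2616). MT2A was 70.8% ± 1.55 of the sum in 786-M1A sgNTC18 libraries and 80.6% ± 1.12 and 80.5% ± 0.565 with the hairpins. In OS-LM1 it was 90.9% ± 0.297, 89.2% ± 1.41 and 86.0% ± 1.63. The share of MT1X rose in both lines by these descriptive values, from 8.68% to 13.1% and 12.2% in 786-M1A and from 5.39% to 10.3% and 12.9% in OS-LM1. The 8 genes together took 0.0207% to 0.180% of the counts of a library.

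MTF1, the sensor, rose with each hairpin in each line. Its CPM was 23.6, 24.4, 24.4 and 22.9 in 786-M1A sgNTC18 libraries, 44.4, 36.1, 45.7 and 43.0 with shPAX8-1, and 44.0, 47.0, 36.8 and 33.4 with shPAX8-2. In OS-LM1 it was 22.6, 23.7, 20.8 and 22.0, then 29.8, 32.5, 31.8 and 31.0 with shPAX8-1, and 47.2, 44.4, 47.6 and 43.0 with shPAX8-2. No hairpin library overlapped the sgNTC18 libraries of its line. The rise was 1.80-fold and 1.72-fold in 786-M1A (log2 0.85 ± 0.12 and 0.78 ± 0.12, adjusted p = 1.8e-05 and 6.1e-05) and 1.38-fold and 2.05-fold in OS-LM1 (log2 0.46 ± 0.09 and 1.04 ± 0.09, adjusted p = 0.00011 and 4.0e-09). With GC and length trends removed, the rise was log2 0.55 and 0.49 in 786-M1A and 0.27 with shPAX8-1 in OS-LM1, still called. MTF1 RNA was thus higher where MT2A rose and where MT2A fell. RNA level says nothing of how much MTF1 protein was in the nucleus.

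SLC30A1, the zinc exporter that MTF1 induces, was 8.26, 6.69, 6.89 and 6.24 CPM in 786-M1A sgNTC18 libraries, 20.9, 17.0, 33.0 and 31.0 with shPAX8-1, and 8.31, 8.69, 10.3 and 9.46 with shPAX8-2. It rose with shPAX8-1 (log2 1.88 ± 0.19, adjusted p = 5.3e-07) and was not called different with shPAX8-2 (log2 0.40 ± 0.20, adjusted p = 0.086), the hairpin with the higher metallothionein sum. In OS-LM1 it was 29.3, 22.3, 29.9 and 25.2 CPM in sgNTC18 libraries, 68.3, 69.8, 61.7 and 55.5 with shPAX8-1, and 105, 114, 87.2 and 77.3 with shPAX8-2. Here it rose with both (log2 1.23 ± 0.13 and 1.85 ± 0.13, adjusted p = 3.9e-08 and 1.8e-10) while MT2A fell. Between the lines SLC30A1 was higher in OS-LM1 in sgNTC18 libraries (log2 1.92 ± 0.17, adjusted p = 2.4e-10), where MT2A was not called different.

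**Figure D5:**
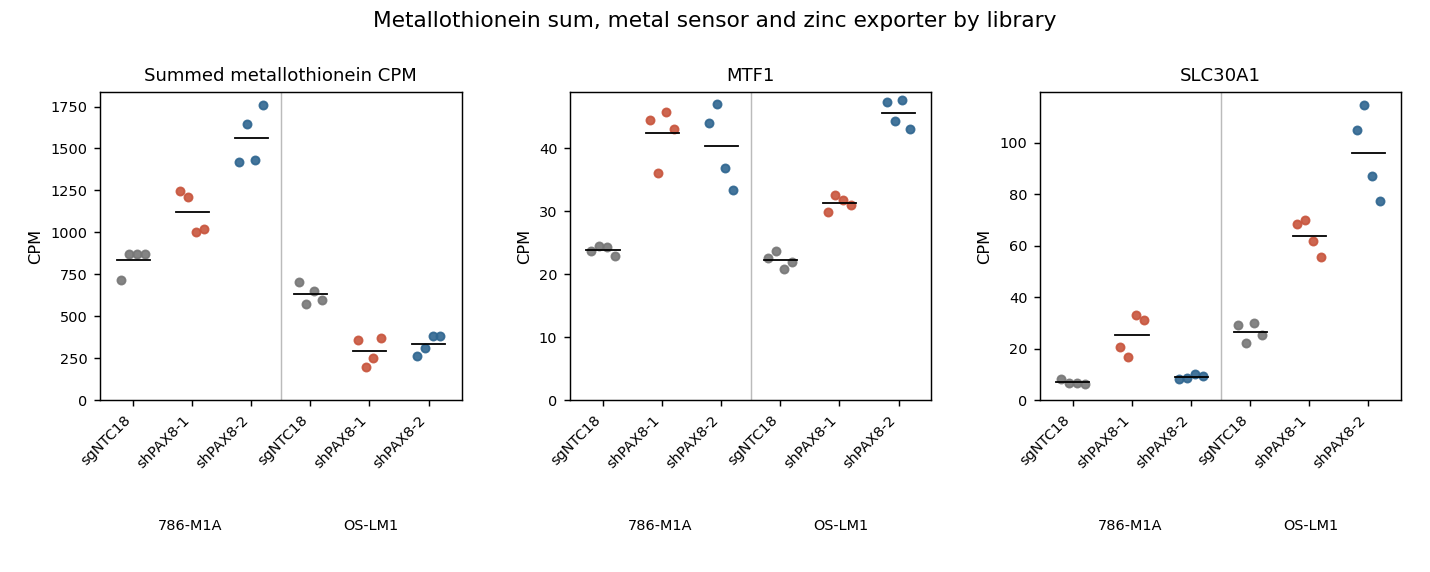
CPM by library (points, n = 4 per group; line at the mean) of the 8 metallothionein genes summed, of MTF1 and of SLC30A1, on linear axes from 0. MTF1 was higher with the hairpins in both lines, the metallothionein sum was higher in 786-M1A and lower in OS-LM1, and SLC30A1 was highest in the OS-LM1 hairpin libraries.

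The hairpins were then compared with each other, which involves no sgNTC18 library. In 786-M1A, 3 of the 5 tested members were lower with shPAX8-1 than with shPAX8-2 (MT1E, MT2A and MT1X) and none was higher, where 22.9% of all genes were lower and 24.2% higher. MT1E was 1.74-fold lower (log2 -0.80 ± 0.17, adjusted p = 0.0016, and log2 -0.52 with a replicate block and the GC trend removed) and MT2A 1.39-fold lower (log2 -0.47 ± 0.11, adjusted p = 0.0031). MT1X was 1.29-fold lower (log2 -0.37 ± 0.14, adjusted p = 0.041), a call lost in 9 alternatives, among them a GC correction (log2 -0.08, adjusted p = 0.61). It was also lost without shPAX8-1 replicate 2, 3 or 4 or shPAX8-2 replicate 1, 2 or 4, each left out alone (log2 -0.39 to -0.28, adjusted p 0.061 to 0.14). The MT2A call was lost with the GC correction too (log2 -0.18, adjusted p = 0.075). MT1F (log2 -0.05 ± 0.18) and MTF1 (log2 0.07 ± 0.12) were not called different between the hairpins in this line. PAX8 itself was 2.26-fold lower with shPAX8-1 than with shPAX8-2.

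In OS-LM1, 3 of the 4 tested members other than MT1G were lower with shPAX8-1 than with shPAX8-2 (MT1F, MT1X and MTF1) and none was higher, where 16.7% of all genes were lower and 12.4% higher. MT1F was 2.35-fold lower (log2 -1.23 ± 0.19, adjusted p = 8.3e-05), MT1X 1.48-fold lower (log2 -0.56 ± 0.13, adjusted p = 0.0026) and MTF1 1.49-fold lower (log2 -0.57 ± 0.09, adjusted p = 7.2e-05), while PAX8 did not separate the hairpins (log2 -0.05 ± 0.12, adjusted p = 0.80). MT2A had a log2 difference of -0.16 ± 0.18 (adjusted p = 0.53). The difference between the hairpins was itself lower in OS-LM1 than in 786-M1A for 2 of the 4 members, MT1F (log2 -1.15 ± 0.27, adjusted p = 0.0027) and MTF1 (log2 -0.61 ± 0.14, adjusted p = 0.0022), and higher for none, where 14.5% of all genes were lower and 12.7% higher.

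Exact permutation tests of log2 CPM (two-sided, 4 libraries against 4) were run for 36 pairs of member and comparison. In 26 of them the p was 0.029, which is the smallest that 4 against 4 can give, and 0.040 after adjustment over the 36. These 26 include MT1G with each hairpin in OS-LM1 and MT1E and MT1G between the lines, where the filter fixed the difference. The tests were run for members only, so no share over all genes stands beside this count.

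Among the other metallothionein genes, 8 of 13 looked for were in the files, and MT1L and MT1B passed the filter. MT1L, a transcribed pseudogene between MT2A and MT1E, rose in 786-M1A with shPAX8-1 (log2 1.01 ± 0.18, adjusted p = 0.00012) and shPAX8-2 (log2 1.59 ± 0.18, adjusted p = 2.5e-06). It was not called different in OS-LM1 (log2 -0.28 ± 0.13 and -0.23 ± 0.13, adjusted p = 0.057 and 0.12), where MT2A fell. How far its reads are those of its neighbours was not tested.

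The lists of related genes that follow are given by counts and were not tested as lists. Over all tested genes, 36.1% rose and 34.5% fell with shPAX8-1 in 786-M1A, and 31.5% and 30.9% with shPAX8-2. In OS-LM1 these shares were 35.6% and 35.8%, then 34.3% and 34.1%. The median log2 change of all genes lay between -0.01 and 0.03 in these 4 comparisons. Of the zinc exporters, 6 passed the filter in 786-M1A and 7 in OS-LM1, of 10 listed. In 786-M1A, 4 rose and 1 fell with shPAX8-1, and 1 rose and 1 fell with shPAX8-2. In OS-LM1, 5 rose and none fell with either hairpin, and the list's median log2 change was 0.64 and 0.48. SLC30A7, which loads zinc into the secretory pathway, rose in all 4 comparisons, by log2 1.26, 0.44, 1.33 and 1.47. Of 14 zinc importers, 11 passed the filter in each line. In 786-M1A, 4 rose and 4 fell with shPAX8-1 and 3 rose and 2 fell with shPAX8-2. In OS-LM1, 3 rose and 5 fell with shPAX8-1 and 4 rose and 5 fell with shPAX8-2. SLC39A10, a zinc importer that MTF1 is known to repress, rose with each hairpin (log2 1.48 and 1.19 in 786-M1A, 0.70 and 0.41 in OS-LM1), and SLC39A3 fell (log2 -0.96 and -0.84, then -1.24 and -1.15).

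The list of MTF1 target genes had 5 tested members, among them SLC30A1 and SLC39A10, which are counted above as well. It pools genes that MTF1 induces with SLC39A10, which MTF1 represses, so its counts give no direction of MTF1 activity. In 786-M1A, 4 rose and 1 fell with shPAX8-1, and 2 rose and 1 fell with shPAX8-2. In OS-LM1 the counts were 3 and 1, then 4 and 0. GCLC, the catalytic subunit of glutathione synthesis, rose by log2 2.39 in OS-LM1 with shPAX8-1, and PGF, a growth factor of blood vessels, by 1.75 in 786-M1A with shPAX8-2. CSRP1 fell by 2.21 on the log2 scale in 786-M1A with shPAX8-1. Among 10 copper handling genes, all of which passed the filter, 5 rose and 4 fell, then 5 and 2, in 786-M1A. In OS-LM1 it was 3 and 4, then 2 and 3. SLC31A1, the copper importer, rose by log2 1.46 in 786-M1A with shPAX8-1, and CCS, the copper chaperone of superoxide dismutase, fell by 1.83.

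Target genes of other known inducers of metallothioneins were counted too, and whether any of these inducers acted here was not tested. The 10 stress genes induced by metal or heat mix heat shock and oxidant response genes. Of these, 6 rose and 2 fell with shPAX8-1 in 786-M1A, and 1 rose and 4 fell with shPAX8-2. In OS-LM1, 4 rose and 3 fell, then 7 rose and 2 fell. HMOX1, the heme oxygenase of the oxidant response, rose in OS-LM1 by log2 1.04 and 1.14. HSPA1A, a heat shock chaperone whose reads are hard to tell from those of its near copy HSPA1B, fell there by 1.20 on the log2 scale with shPAX8-1. Of the glucocorticoid receptor and its target genes, 9 of 10 were tested. In 786-M1A 6 rose and 2 fell with shPAX8-1, and 5 rose and 2 fell with shPAX8-2. In OS-LM1 5 rose and 4 fell, then 4 rose and 3 fell. PER1, a clock gene that glucocorticoids induce, rose in 786-M1A by log2 2.45 and 2.32. FKBP5, another such gene, fell by 1.65 and 1.67 in the same libraries. In OS-LM1, KLF9 rose by log2 4.29 and 4.15 and CEBPD fell by 1.45 and 1.72. Both encode transcription factors.

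Of 14 genes that flank the cluster at 16q13, 11 were tested. With shPAX8-1 in 786-M1A 5 rose and 6 fell, and with shPAX8-2 2 rose and 4 fell. In OS-LM1 none rose with either hairpin, while 8 fell with shPAX8-1 and 6 with shPAX8-2, at medians of -0.48 and -0.31 on the log2 scale. NUP93, a nuclear pore gene on the MT1X side of the cluster, fell there by 1.90 and 1.62 on the log2 scale. It was lower with the hairpins in 786-M1A too, at a mean of 97.0 CPM in sgNTC18 libraries, 53.9 with shPAX8-1 and 48.3 with shPAX8-2. HERPUD1, an endoplasmic reticulum stress gene further along, rose in 786-M1A by log2 2.21 and 1.40, and NLRC5, a regulator of antigen presentation genes, fell there by 2.81 and 1.50. In OS-LM1 the mean CPM with sgNTC18, shPAX8-1 and shPAX8-2 was 86.7, 80.9 and 78.7 for HERPUD1. For NLRC5 it was 11.7, 6.34 and 9.99.

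Over the 24 libraries, the members did not vary as a block. Pearson's r of log2 CPM, a description over libraries that share 6 groups, was 0.87 for MT2A with MT1X and 0.84 for MT2A with MT1F, but 0.06 for MT2A with MTF1 and -0.75 for MT2A with SLC30A1. With each group's mean taken out, MT2A had r = 0.65 with MT1X, 0.71 with MT1F, 0.62 with MT1E and 0.76 with MT1L, and -0.28 with MTF1. MT1E with MT1X had 0.20, and MT1G had 0.06 with MT2A, -0.02 with MT1F and -0.17 with MT1E. MT1G had a count in only 10 libraries, so its r values were largely set by libraries at 0 and say little about shared variation. MT1E had at most 1 count in any OS-LM1 library, so its values rest on 786-M1A. The part of shared reads in these values was not tested, and r between genes outside the family was not computed for comparison. The 5 genes outside the family most like its standardized mean over the 24 libraries were BACE2 (r = 0.98), HDAC6 (0.98), SEMA4D (0.98), ZMYM3 (0.97) and NAV2 (0.97). With group means taken out they were FAM127C (0.91), GNB2L1 (0.91), VKORC1 (0.88), PLP2 (0.86) and SNU13 (0.86).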

How the data were processed

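Poly(A) RNA of 24 libraries in 6 groups was sequenced by the study. For quantification its authors used RSEM with Bowtie2 on build hg38 (versions and annotation release not given in the sources used here). Per the labels, libraries were made with a stranded KAPA kit, whereas the methods name another kit. The deposited files hold expected counts and TPM for 26475 genes, and TPM divides by the whole transcript length.

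Expected counts were rounded and filtered with filterByExpr. Within a line (12 libraries; 14452 genes tested in 786-M1A, 15049 in OS-LM1) or over all 24 libraries (15665) they were compared with the robust quasi-likelihood test of edgeR 4.0.16 in R 4.3.3, with TMM normalization, Benjamini-Hochberg adjustment over all tested genes and a threshold of 0.05. CPM uses TMM over all 24 libraries and log2 CPM a prior count of 2. Exact permutation tests and intervals used scipy 1.17.1. The scripts were tested on simulated counts. Alternatives were DESeq2 1.42.0 and its size factors, no filter, GC and length corrections, other sets of libraries, a replicate block and omission of each library. Named genes were the members, PAX8, SLC30A1, some of the largest significant rises and falls of each list in each comparison, and the 5 genes most like the family by 2 measures. Members and lists were chosen with earlier results of these data known. Replicates differed beyond sampling noise in all 36 pairs. Intervals and floors cover counting error only. Coordinates are those of GENCODE v44 on GRCh38.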

Additional observations from a re-analysis of the deposited data

Results flagged for a closer look

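A single library stood apart from the other 3 of its group in 3 of the 35 gene-and-group sets checked, where chance gives about 1 in 20, or 1.75. The sets cover the tested members and PAX8, and all 3 flags fell on members. MT2A was 471 CPM in 786-M1A sgNTC18 replicate 1, against 594 to 605 in the others, and without it the log2 rise was 0.60 with shPAX8-1 and 1.07 with shPAX8-2, against 0.68 and 1.16 with it. MT1X was 171 CPM in 786-M1A shPAX8-1 replicate 1, against 126 to 132. MT1G was 0.146 CPM in OS-LM1 shPAX8-2 replicate 3, from 7 counts, and 0 in the other 3, a pattern that the check always flags.

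The response of 3 members to the hairpins differed between the lines by a test of the difference, with a log2 value of -3.07 for MT1F, -1.95 for MT2A and -1.18 for MT1X (OS-LM1 minus 786-M1A). The difference between the hairpins also depended on the line for MT1F (-1.15) and MTF1 (-0.61).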

How the results depend on the processing

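Over all tested genes, the calls per comparison ran from 4264 of 15665 (line difference of the hairpin difference) to 13024 of 15665 (lines in hairpin libraries). Of 54 results for single members, 38 were called (5 of them for MT1E or MT1G, where the filter fixed the difference). Of these 38, 34 kept direction and call in every alternative run. The 4 others were MT1F with shPAX8-1 in 786-M1A, MT1X with shPAX8-2 in OS-LM1, and MT1X and MT2A between the hairpins in 786-M1A, whose values stand beside them in the report. No called result changed direction. With no filter on low counts, 5 of 9 members rather than 3 of 6 differed in their response between the lines. The added 2 were among MT1A, MT1H and MT1M, which have at most 14 counts per library. With the filter, 9203 of all 15665 tested genes were called in this comparison, and the share without it is not given here. The results that changed sign were all uncalled in the report, and the cause was not tested. With the GC trend removed, MT1X with shPAX8-1 in OS-LM1 became 0.14 on the log2 scale and MT1F between the hairpins in 786-M1A 0.39 (edgeR adjusted p = 0.012, a call, and 0.17 with the length trend removed too), and the line difference of MTF1 became 0.043 with both trends removed. Leaving out 1 library at a time gave, between the hairpins, -0.25 to 0.045 for MT1F and -0.014 to 0.15 for MTF1 in 786-M1A, and -4.33 to 0 for MT1G and -0.31 to 0.0092 for MT2A in OS-LM1. Between the lines it gave -0.056 to 0.067 for MT2A in sgNTC18 libraries and -1.63 to 0.64 for MT1G in hairpin libraries. The line difference of the response ran from -0.095 to 0.010 for MTF1, and that of the hairpin difference from -1.35 to 0.67 for MT1E and -1.28 to 3.27 for MT1G. These MT1E and MT1G values rest on counts near 0.

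Replicate numbers did not pair the libraries, by correlations of log2 CPM between groups of a line with each group's mean taken out. The mean was 0.0020 for same-numbered libraries, with 8 of 24 pairs over 0.1. For differently numbered libraries it was -0.00099, with 25 of 72 pairs over 0.1. Only 5 of 24 libraries correlated best with their own number. A replicate block moved the genes called with shPAX8-1 against sgNTC18 from 10199 to 10283 in 786-M1A and from 10746 to 10355 in OS-LM1, and with the GC trend removed as well it gave 0.13 for MT1X and 0.39 (adjusted p = 0.015) for MT1F in the comparisons above. Low counts limit MT1A, MT1H and MT1M throughout.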
